A study of Mus musculus with 24 samples.

Results

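The 9 genes described here encode the 4 myogenic regulatory factors (Myod1, Myog, Myf5, and Myf6), the 3 E proteins (Tcf3, Tcf4, and Tcf12), and a pair of basic helix-loop-helix (bHLH) repressors (Msc and Bhlhe40). They were taken by symbol from the 56941 genes listed for each library, and all 9 had enough counts to enter the test, which covered 13315 genes. They were selected on their counts and fold changes in these same libraries, which were known when the list was drawn up, so the members' values and fold changes are given as a description. No p-value is printed for a member, and members past the threshold are only counted. RNA was sequenced from C2C12 myoblasts, a mouse line, that carried ChR2::tdTomato, a light-gated channel joined to a red fluorescent protein. The cells were grown on fibrin hydrogels in 10% inactivated horse serum with 50 ng/ml IGF-1 for about 2 weeks. The 4 groups of 6 libraries each were an unstimulated control and tissues given 60 min of light daily at 1 Hz, 4 Hz, or 10 Hz. All 4 groups shared the line, the transgene, the gel, and the medium. The unstimulated tissues also twitched on their own, and no group carried cells without the channel, so the controls are neither at rest nor a test of light alone. The replicates are named biological replicates of 1 line, and the p-values measure the spread between these cultures.

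Muscle bHLH factors bind the E-box, the short DNA motif CANNTG, as heterodimers of a tissue-restricted factor with a broadly expressed E protein. Myod1 and Myf5 are known for committing cells to the muscle lineage, Myog for driving terminal differentiation and fusion, and Myf6 for its role in mature fibres. ID proteins hold a helix-loop-helix but no basic region, so their dimers with E proteins do not bind DNA. Msc, also called MyoR, binds E-boxes as a repressor, and Bhlhe40 is a repressor of the circadian clock and of the response to low oxygen.

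The DNA just upstream of 4 genes is shown because these were the genes whose libraries did not overlap with the controls at both 1 Hz and 4 Hz. Taken 1 frequency at a time, such a separation was seen for 14.1% of all genes tested at 1 Hz and 27.6% at 4 Hz. The share of genes apart at both was not computed. Each run holds the 250 bases before the start of the gene's canonical transcript in GENCODE M39 on GRCm39, 5′ to 3′ on the gene's strand. Capitals mark an E-box or the letters CTA and TAG with any 4 bases between them. At these 4 positions the pattern is looser than the site of MEF2, a family of muscle transcription factors, which takes A or T there. Its ends were fixed at CTA and TAG, and other ends were not searched. A window without a match may thus still hold a MEF2 site. Both strands were searched.
Myog (chr1:134217457-134217706, plus strand): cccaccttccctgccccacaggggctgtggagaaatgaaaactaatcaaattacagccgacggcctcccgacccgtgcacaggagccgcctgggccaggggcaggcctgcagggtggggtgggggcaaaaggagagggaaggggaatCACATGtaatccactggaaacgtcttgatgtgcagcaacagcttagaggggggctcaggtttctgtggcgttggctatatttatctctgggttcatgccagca
Myod1 (chr7:46025620-46025869, plus strand): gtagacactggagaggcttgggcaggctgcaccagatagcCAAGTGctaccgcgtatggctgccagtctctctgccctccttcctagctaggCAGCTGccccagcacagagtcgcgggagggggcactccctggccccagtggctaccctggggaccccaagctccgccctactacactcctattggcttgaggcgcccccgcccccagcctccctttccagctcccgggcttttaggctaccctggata
Myf5 (chr10:107321996-107322245, minus strand): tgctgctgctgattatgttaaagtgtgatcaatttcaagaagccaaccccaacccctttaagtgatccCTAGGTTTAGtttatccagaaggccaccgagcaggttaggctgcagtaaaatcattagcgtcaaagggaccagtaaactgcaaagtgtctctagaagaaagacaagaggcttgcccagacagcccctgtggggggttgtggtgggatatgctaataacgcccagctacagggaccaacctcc
Bhlhe40 (chr6:108636376-108636625, plus strand): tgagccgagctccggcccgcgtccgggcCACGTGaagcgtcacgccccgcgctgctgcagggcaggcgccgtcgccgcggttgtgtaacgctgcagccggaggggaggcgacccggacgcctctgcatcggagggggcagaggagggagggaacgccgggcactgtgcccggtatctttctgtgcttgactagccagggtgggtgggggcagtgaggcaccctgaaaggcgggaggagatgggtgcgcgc
The Myog window held 1 E-box, 103 to 98 bases before the start, and the Myod1 window held 2, of which the nearer one, CAGCTG, lies 158 to 153 bases before it. The Myf5 window held no E-box but 1 match to the looser pattern, 182 to 173 bases before the start, which holds G between its ends and so is not a MEF2 site by that definition. The single E-box of Bhlhe40, CACGTG, lies 222 to 217 bases before it. An E-box is common, with a match in 64.8% of 21770 windows of this length and in those of 5 of the 9 genes. The E-box form seen in Myod1 occurred in 11.9% of all windows, that of Bhlhe40 in 6.26%, and the looser pattern in 3.32%. These matches describe letters, not binding, which was not measured.

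Myod1 is a 2657-bp gene on chromosome 7, and Myog spans 2581 bp on chromosome 1. Myf5 and Myf6 lie on the same strand of chromosome 10 with 6716 bp between them. The reads of Myog can be shared with Gm32221, a long non-coding RNA on the opposite strand that is not among the listed genes. The paper names a directional library kit, but how the counting used strand is not given in the sources used here. For Msc the opposite-strand gene Gm9947 held up to 31.6% of the Msc count in a library, and for Tcf12 the opposite-strand pseudogene Rpl15-ps2 held up to 22.9% of the Tcf12 count. The overlapping opposite-strand 0610040F04Rik held at most 0.0557% of the Bhlhe40 count. These percentages do not measure reads given to the wrong gene, which was not tested. Any error from overlap in the levels of Msc and Tcf12 is thus of unknown size.

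Depth ran from 8052369 to 18159144 estimated counts per library. Markers of differentiated muscle were abundant in all groups, although the label gives the cell type as myoblast. The 7 myotube genes summed to between 7390 and 13500 CPM (counts scaled to a common library size) in every library, against 431 to 585 CPM for 6 myoblast or reserve-cell genes and 18.7 to 49.8 CPM for 6 proliferation genes. The 5 endothelial genes summed to at most 0.667 CPM. Of the 5 macrophage genes, C1qa was at 0 in every library, and 4 were under 1 CPM in every group, while the sum of 39.6 to 73.6 CPM came almost wholly from Cd68, a lysosomal protein. Fibroblast genes summed to between 517 and 1020 CPM and osteoblast genes to between 34.9 and 54.9 CPM, with overlapping groups. The 6 adipocyte genes summed to 13.1 to 22.6 CPM in the control, 23.4 to 33.4 at 1 Hz, 22.3 to 34.9 at 4 Hz, and up to 26.8 at 10 Hz, almost wholly from Pparg, a nuclear receptor of fat cell differentiation, and the other 5 were under 1 CPM in every group. This list was thus higher at 1 Hz than in every control library, and its part in the results was not tested. The median ratio of CPM to TPM, the length-scaled unit, set 5 libraries apart, at 1.17 to 1.32 times the level of the controls against 0.967 to 1.14 in the other 19. These were 1 Hz replicates 4 and 6 and 4 Hz replicates 1, 3, and 4, and ribosomal-protein genes took between 7.29% and 8.07% of their counts, against 4.60% to 6.30% elsewhere. Their part in the results was not tested beyond the values given without them.

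Among the myogenic regulatory factors, Myog and Myod1 were lower and Myf5 was higher at 1 Hz and at 4 Hz than in the control, in 6 of 6 libraries each. In TPM, Myog was the most abundant of the 9 genes in all groups. Its level (lowest, median, and highest CPM of 6 libraries) was 459, 590, and 599 in the control. At 1 Hz it was 182, 224, and 242 CPM, and at 4 Hz it was 193, 203, and 217 CPM. Both sets of libraries thus lay far below the lowest control. At 10 Hz the level was 438, 495, and 507 CPM, inside the range of the controls except for 1 library. The mean of 561 ± 56.7 CPM (SD, n = 6) in the control compared with 221 ± 21.7 at 1 Hz and 203 ± 8.80 at 4 Hz. In edgeR the log2(fold change) was -1.34 ± 0.073 (SE) at 1 Hz and -1.47 ± 0.0733 at 4 Hz. At 10 Hz it was -0.20 with a 95% interval of -0.34 to -0.06. In bulk tissue, a smaller share of cells with a transcript and less of it per cell cannot be told apart.

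Myod1 followed the same order of conditions. Its CPM was 186, 214, and 236 (lowest, median, and highest) in the control and 170, 190, and 207 at 10 Hz. At 1 Hz it was 68.5, 80.8, and 91.4 CPM, and at 4 Hz 51.5, 60.1, and 77.1 CPM. The 12 libraries at 1 Hz and 4 Hz all lay below the lowest of the other 12. Means at 1 Hz and 4 Hz were 37.4% and 29.6% of the control mean, with a log2(fold change) of -1.42 ± 0.0895 and -1.75 ± 0.0909. At 10 Hz, 3 of 6 libraries were below every control, and the log2(fold change) was -0.18 (95% interval -0.35 to -0.01). Between 4 Hz and 1 Hz the log2(fold change) of Myod1 was -0.33 (-0.51 to -0.16), and 4 of the 6 libraries at 4 Hz lay below every library at 1 Hz.

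Myf5, the other commitment factor, went the opposite way from a low level. It stood at 10.5, 12.3, and 15.4 CPM in the control, from 118 to 223 counts per library. At 1 Hz it stood at 24.9, 30.2, and 39.1 CPM, and at 4 Hz at 25.7, 28.6, and 30.9 CPM. Neither set overlapped the controls, while the 4 Hz libraries all fell inside the range at 1 Hz. The log2(fold change) was 1.32 ± 0.127 at 1 Hz and 1.17 ± 0.128 at 4 Hz. At 10 Hz the level was 14.5, 16.8, and 24.6 CPM, with 4 of 6 libraries above every control and a log2(fold change) of 0.49 ± 0.130. In TPM, 6 of 6 libraries at 10 Hz lay above every control. Replicate 3 held the highest Myf5 at 1 Hz and also at 10 Hz, but the replicate numbers carry no shared source in the labels.

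Myf6, the factor of mature fibres, was close to the limit of what the depth can resolve, with 11 to 92 counts per library. Its mean was 2.24 ± 0.820 CPM in the control, 3.15 ± 1.34 at 1 Hz, 2.26 ± 0.560 at 4 Hz, and 1.38 ± 0.257 at 10 Hz. Relative to the control, its log2(fold change) came to 0.52 (95% interval 0.04 to 0.99) for 1 Hz, 0.02 (-0.48 to 0.53) for 4 Hz, and -0.70 (-1.23 to -0.16) for 10 Hz. The libraries overlapped the controls in all 3 comparisons. The highest value at 1 Hz, 5.61 CPM, was in replicate 4, and without the 5 libraries that stood apart the log2(fold change) at 1 Hz was 0.20. At 4 Hz, where Myf5 lay above every control in 6 of 6 libraries, its neighbour Myf6 did so in 0 of 6.

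**Figure D1:**
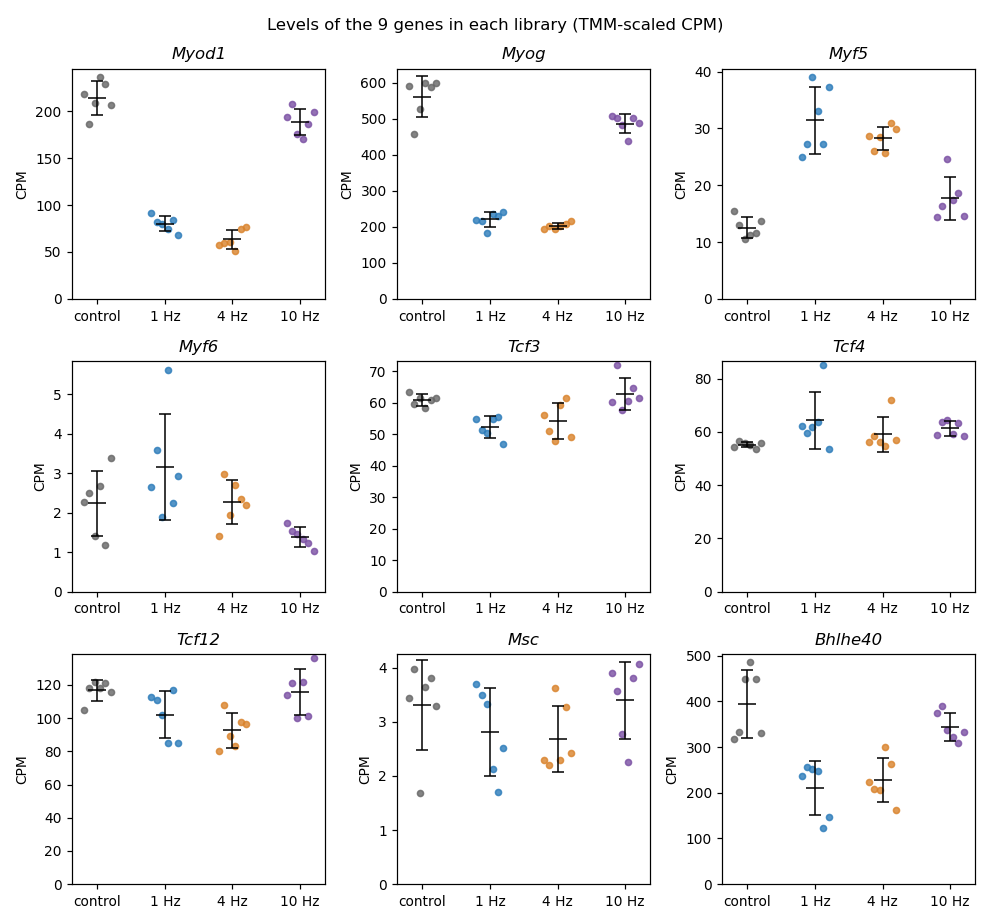
TMM-scaled CPM (vertical axis, linear and starting at 0 in each panel) of the 9 genes by condition, with 1 point per library, a horizontal mark at the mean, and bars of 1 SD (n = 6). Myod1, Myog, and Bhlhe40 lie lower and Myf5 lies higher at 1 Hz and 4 Hz than in every control library, while the 10 Hz points overlap the controls for all genes but Tcf4.

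In edgeR the 3 E proteins stood between -0.34 and 0.22 on the log2 scale against the control. They ranged more widely on log2(TPM + 1), with Tcf3 at -0.40 and Tcf12 at -0.40 for 1 Hz, and Tcf3 at -0.49 and Tcf12 at -0.59 for 4 Hz, where all tested genes centred at -0.14 and -0.21. Tcf3 encodes E12 and E47, Tcf4 encodes E2-2, and Tcf12 encodes HEB. Tcf3 was 58.3, 61.2, and 63.5 CPM in the control and 46.9, 53.1, and 55.6 CPM at 1 Hz, where all 6 libraries lay below the controls. The difference was small, with a log2(fold change) of -0.22 ± 0.070. At 4 Hz, with 47.9, 53.6, and 61.5 CPM, 4 of 6 libraries lay below the controls, and the log2(fold change) was -0.17 ± 0.0703. At 10 Hz the level was 57.6, 61.2, and 72.0 CPM, and the log2(fold change) was 0.05 (-0.09 to 0.18).

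Tcf12 was the most abundant E protein in mean TPM. Its mean was 117 ± 6.05 CPM in the control, 102 ± 14.3 at 1 Hz, 92.6 ± 10.3 at 4 Hz, and 116 ± 13.8 at 10 Hz. Relative to the control these were -0.20 ± 0.0903, -0.34 ± 0.0907, and -0.01 ± 0.0902 on the log2 scale, in that order. The lowest values at 1 Hz, with a minimum of 84.9 CPM, were in replicates 4 and 6, both of which stood apart, and the lowest at 4 Hz were in replicates 1, 4, and 3, which also did. Without the 5 libraries the log2(fold change) was -0.08 at 1 Hz and -0.24 at 4 Hz. Tcf4 showed the reverse direction at 1 Hz, with a mean of 55.1 ± 1.02 CPM in the control and 64.2 ± 10.7 at 1 Hz and a log2(fold change) of 0.22 ± 0.0838. Replicate 5 reached 84.9 CPM there, while the other 5 libraries lay between 53.7 and 63.7 CPM. At 4 Hz the log2(fold change) of Tcf4 was 0.10 ± 0.0842. Its sign turned on the log2(TPM + 1) scale, to -0.13, where all tested genes centred at -0.21. At 10 Hz Tcf4 was 58.3, 61.2, and 64.6 CPM and lay above every control in 6 of 6 libraries, by a log2(fold change) of 0.15 ± 0.084. In TPM, 4 of 6 libraries did so.

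Of the repressors, Bhlhe40 was lower at 1 Hz and 4 Hz than in the control, and Msc differed by less than its spread. Bhlhe40 stood at 317, 391, and 486 CPM in the control, 123, 243, and 256 CPM at 1 Hz, and 163, 216, and 301 CPM at 4 Hz. All 12 libraries at 1 Hz and 4 Hz lay below the lowest control, but within each frequency the levels spread more widely than those of Myog. At 1 Hz, replicates 5 and 6 held 123 and 146 CPM, and the other 4 libraries held 237 to 256 CPM. Against the control, Bhlhe40 stood at -0.90 ± 0.168 on the log2 scale at 1 Hz and at -0.79 ± 0.168 at 4 Hz. At 10 Hz the level was 308, 335, and 389 CPM, and the log2(fold change) was -0.20 (-0.52 to 0.13). Msc held 18 to 68 counts per library, and its mean was 3.30 ± 0.828 CPM in the control, 2.81 ± 0.813 at 1 Hz, 2.68 ± 0.605 at 4 Hz, and 3.39 ± 0.717 at 10 Hz. Its log2(fold change) was -0.26 (-0.67 to 0.14), -0.32 (-0.74 to 0.09), and 0.03 (-0.36 to 0.43), so that a change in either direction remains within reach of the error.

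**Figure D2:**
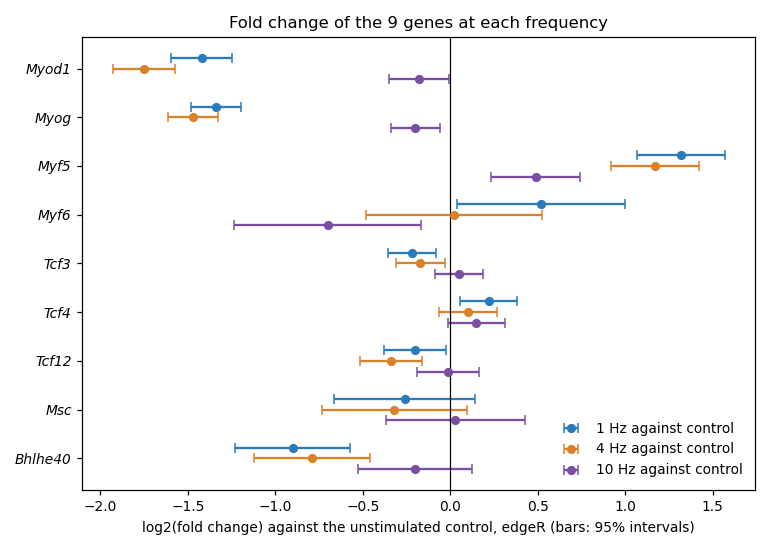
The log2(fold change) of the 9 genes against the unstimulated control (horizontal axis) at 1 Hz, 4 Hz, and 10 Hz, from 1 edgeR fit of 24 libraries, with bars for the 95% interval. At 1 Hz and 4 Hz, Myod1 and Myog lie between -1.75 and -1.34, Bhlhe40 at -0.90 and -0.79, and Myf5 at 1.32 and 1.17, and the 10 Hz values lie nearer 0 for all 4.

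Genes past both an adjusted p of 0.05 and a log2(fold change) of 0.5 in either direction were called changed. For 1 Hz this held for 4 of the 9 genes, Myf5 upward and Myod1, Myog, and Bhlhe40 downward, beside 14.9% of all genes tested. At 4 Hz it held for the same 4, beside 25.1% of all genes. Libraries that did not overlap the controls in CPM were seen for 5 of 9 at 1 Hz (14.1% of all genes), 4 of 9 at 4 Hz (27.6%), and 1 of 9 at 10 Hz (1.64%). At 10 Hz against the control, edgeR counted 0 of 9 as changed, beside 0.0376% of all genes, with 4 of 9 at an unadjusted p under 0.05 against 8.07% of all genes. DESeq2 and limma on log2(TPM + 1) also counted 0 of the 9 there, beside 23 of 27799 and 0 of 13422 genes in all. As the members were picked with these contrasts known, nothing is read from their counts.

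The frequencies were also compared with each other, and these comparisons share libraries with those against the control. At 10 Hz against 1 Hz, 5 of 9 genes were counted, beside 10.8% of all genes. Myod1 was higher at 10 Hz by a log2(fold change) of 1.24 ± 0.0894, Myog by 1.14 ± 0.0727, and Bhlhe40 by 0.71 ± 0.168. Myf5 was lower at 10 Hz, at -0.84 ± 0.126, and Myf6 at -1.21 ± 0.266. All 5 sets of libraries were apart, as was that of Tcf3 at a log2(fold change) of 0.26 ± 0.0703, and such a separation held for 7.70% of all genes. At 10 Hz against 4 Hz the same 5 genes were counted, beside 21.2% of all genes, with Myod1 at 1.57 ± 0.0906, Myog at 1.26 ± 0.073, Bhlhe40 at 0.60 ± 0.167, Myf5 at -0.68 ± 0.127, and Myf6 at -0.72 ± 0.280. Myf5 on log2(TPM + 1) stood at -0.37 for 10 Hz against 4 Hz and was no longer counted. On that scale all tested genes centred at 0.20 for 10 Hz against 4 Hz. For Myf6 only 3 of 6 libraries at 10 Hz lay below every library at 4 Hz, and the call was lost in 12 of 21 alternatives, including the removal of 4 Hz replicate 2, 4, or 5 or of any 1 of 10 Hz replicates 2 to 6, and stood at -0.27 on log2(TPM + 1). Between 4 Hz and 1 Hz, edgeR counted 0 of 9, as of all genes (0%). There, 1 of 9 had an unadjusted p under 0.05, against 11% of all genes, and DESeq2 counted 0 of the 9, beside 1 of 27799 genes. The libraries of these frequencies overlapped for all 9, and were apart for 0.376% of all genes.

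Levels can be compared between genes only per length, in TPM. In the control the order of mean TPM was Myog at 648, Bhlhe40 at 207, Myod1 at 193, Tcf12 at 45.0, Tcf3 at 34.7, Tcf4 at 22.4, Myf5 at 9.96, Msc at 4.49, and Myf6 at 3.13. Bhlhe40 and Myod1 overlapped, as did Msc and Myf6, and the other neighbours did not. At 1 Hz, Myf5 at 21.4 TPM reached the range of Tcf4 at 24.5 TPM, and the libraries of each neighbouring pair from Bhlhe40 down to Myf5 overlapped. The order of Myog, Bhlhe40, and Myod1 as the top 3 was shared by all 4 conditions.

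The makeup of the 4 myogenic regulatory factors differed by condition. Their summed TPM was 854 ± 81.1 in the control, 310 ± 45.3 at 1 Hz, 255 ± 40.6 at 4 Hz, and 739 ± 58.3 at 10 Hz. Myog made up 75.8% ± 0.988 of the sum in the control, 71.4% ± 2.77 at 1 Hz, 74.0% ± 1.89 at 4 Hz, and 75.2% ± 0.667 at 10 Hz, so that the dominant factor held its place while the sum lay below the lowest control in all 12 libraries at 1 Hz and 4 Hz. Myod1 held 22.6% ± 1.05, 20.3% ± 2.63, 17.9% ± 1.86, and 22.7% ± 0.932. The share of Myf5 was 0.973%, 1.13%, and 1.45% (lowest, median, and highest) in the control. It was 5.51%, 6.59%, and 9.81% at 1 Hz, 6.61%, 7.08%, and 7.55% at 4 Hz, and 1.49%, 1.79%, and 2.65% at 10 Hz. All 18 stimulated libraries thus lay above the highest control. The share of Myf6 was 0.372% ± 0.137 in the control, 1.23% ± 0.478 at 1 Hz, 1.00% ± 0.250 at 4 Hz, and 0.261% ± 0.0453 at 10 Hz.

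**Figure D3:**
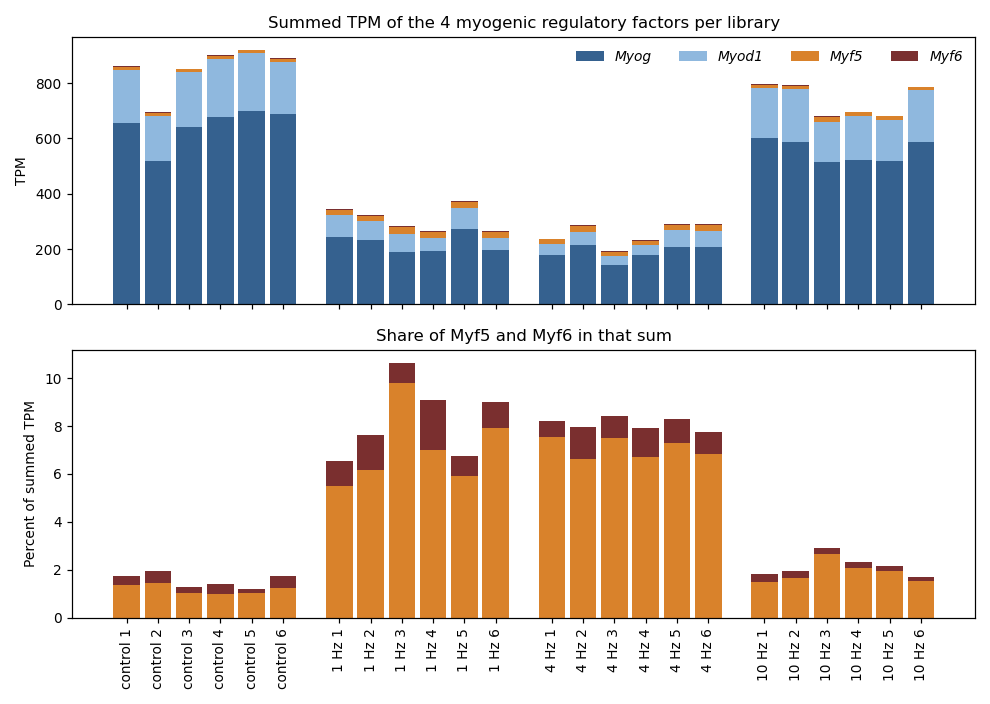
Summed TPM of Myog, Myod1, Myf5, and Myf6 in each of the 24 libraries (upper panel) and the percent of that sum held by Myf5 and Myf6 (lower panel), with 1 bar per library, labelled by condition and replicate. The sum lies between 192 and 375 TPM at 1 Hz and 4 Hz and between 680 and 921 TPM in the control and at 10 Hz, and the Myf5 share lies between 5.51% and 9.81% in the former against 0.973% to 2.65% in the latter.

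Set against their partners, the myogenic regulatory factors held 8.38 ± 0.897 times the summed TPM of the 3 E proteins in the control. This ratio was 3.76 ± 0.687 under 1 Hz, 3.41 ± 0.400 under 4 Hz, and 6.90 ± 0.748 under 10 Hz stimulation. The highest ratio at 1 Hz, 4.88, lay below the lowest control, 6.78. The summed TPM of Id1 to Id4, the inhibitors that take up E proteins, was 1.31 ± 0.169 times that of the E proteins in the control, 1.54 ± 0.509 at 1 Hz, 1.5 ± 0.349 at 4 Hz, and 0.975 ± 0.308 at 10 Hz, and the ranges of all groups overlapped. These are ratios of transcripts, not of proteins.

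Over the 24 libraries, log2 CPM of Myod1 and Myog gave a Pearson correlation of 0.97, and each gave -0.88 and -0.89 with Myf5 in that order. These values describe libraries that share 4 conditions, depth, and composition, so they mostly restate the differences between conditions. The other tested genes most like Myog, after Myod1 at 0.975, were Kat2a at 0.971, Cdc42ep2 at 0.971, Bpnt1 at 0.970, and Vipas39 at 0.970. Cdc42ep2, an effector of the Cdc42 GTPase, stood at a mean of 128 CPM in the control, 57.8 at 1 Hz, 53.1 at 4 Hz, and 114 at 10 Hz. Those most like Myf5 were Bcl10 at 0.951, B2m at 0.947, Ddx50 at 0.946, Msmo1 at 0.944, and Gorab at 0.943. B2m, the light chain of the class I histocompatibility complex, stood at 486, 702, 669, and 571 CPM in the same order.

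The wider network was described by 4 lists holding 110 genes, of which 95 were tested. In edgeR 14 changed at 1 Hz, with 4 higher and 10 lower, and 20 changed at 4 Hz, with 8 higher and 12 lower. These are 4.21% and 10.5% of the tested list genes at 1 Hz and 8.42% and 12.6% at 4 Hz, beside 7.19% and 7.74% and then 12.8% and 12.3% of all genes. On log2(TPM + 1) the tested genes centred at -0.14 for 1 Hz and -0.21 for 4 Hz, against 0.04 and 0.06 in edgeR. Of all 13422 genes tested on that scale, 198 were higher and 1710 lower at 1 Hz, and 333 higher and 3166 lower at 4 Hz. The list genes there split into 1 higher and 14 lower at 1 Hz and 0 higher and 18 lower at 4 Hz. At 10 Hz edgeR called 0, beside 0.0376% of all genes, with 19 of 95 at an unadjusted p under 0.05 beside 8.07% of all genes. There DESeq2 called 1 (Eya1), beside 23 of 27799 genes, and limma on log2(TPM + 1) called 0, beside 0 of 13422 genes. Those 19 were 2 inhibitors, 5 other bHLH factors, 4 upstream and partner regulators, and 8 muscle genes.

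Of the 6 ID and I-mfa inhibitors, 1 was called at 1 Hz and at 4 Hz, and 0 at 10 Hz. The shares of all genes called in either direction were 14.9%, 25.1%, and 0.0376%. Mdfi, which encodes I-mfa, an inhibitor that holds myogenic factors in the cytoplasm, was 0.966 ± 0.149 CPM in the control, 1.52 ± 0.734 at 1 Hz, 1.84 ± 0.340 at 4 Hz, and 1.94 ± 0.833 at 10 Hz. In edgeR these were 0.70 ± 0.281, 0.91 ± 0.284, and 0.97 ± 0.280 on the log2 scale (adjusted p = 0.049, 0.0099, and 0.22), so that the 10 Hz value was not called although 6 of 6 libraries lay above every control. On log2(TPM + 1) it was -0.14 at 1 Hz and 0.09 at 4 Hz, and without the 5 libraries that stood apart the calls were lost, at 0.34 (adjusted p = 0.42) and 0.71 (adjusted p = 0.086). Without 1 Hz replicate 4 alone it was 0.40 at 1 Hz. Id2 had the highest CPM of the 4 ID genes, at 49.7 ± 5.57 in the control and 50.6 ± 11.5 at 1 Hz, and its log2(fold change) was 0.03 ± 0.142 at 1 Hz and -0.51 ± 0.144 at 10 Hz (adjusted p = 0.22 in edgeR), where 5 of 6 libraries lay below every control. Id1, at 20.2 ± 2.67 CPM in the control, Id3, at 16.5 ± 4.89, and Id4, at 0.513 ± 0.284, were not called in edgeR at any frequency, nor was Mdfic, at 70.4 ± 10.4. Mdfic at 4 Hz was -0.25 ± 0.111 in edgeR (adjusted p = 0.061) and was called lower on both TPM scales, at -0.55 on log2(TPM + 1) (adjusted p = 0.019 in limma). Id3 at 1 Hz was 0.49 ± 0.273 in edgeR (adjusted p = 0.16) and was called higher without 1 Hz replicate 5, at 0.65. At 1 Hz and 4 Hz the sign of Id2 depended on the scaling, as did those of Id1 and Mdfic at 1 Hz.

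Among 28 other bHLH factors, 15 were tested, and 2 were higher and 2 lower at both 1 Hz and 4 Hz, or 13.3% of the list in each direction. Of all genes, 7.19% were higher and 7.74% lower at 1 Hz, and 12.8% and 12.3% at 4 Hz. On log2(TPM + 1), where 14 were tested, 1 was higher and 2 were lower at 1 Hz, and 0 were higher and 3 lower at 4 Hz. The splits of all genes on that scale are given above. Hes1, the Notch-responsive repressor, rose from 16.1 ± 3.13 CPM to 31.1 ± 6.09 at 1 Hz, a log2(fold change) of 0.95 ± 0.144 (edgeR adjusted p = 1.6e-05). At 4 Hz it reached 27.2 ± 3.65 CPM, at 0.75 ± 0.145 (adjusted p = 0.00014). Mitf, which encodes a bHLH-leucine zipper factor, rose from 9.33 ± 1.45 CPM to 14.0 ± 1.35 and 14.4 ± 1.65, or 0.58 ± 0.107 and 0.62 ± 0.108 on the log2 scale (adjusted p = 0.00016 and 4.3e-05). Each of its 12 libraries at these frequencies lay above the highest control. On log2(TPM + 1) Mitf was at 0.26 and 0.31 and Hes1 at 0.69 and 0.40, which ends the calls of Mitf and that of Hes1 at 4 Hz. Heyl, another Notch target, fell from 2.21 ± 0.754 CPM to 0.837 ± 0.617 at 1 Hz and 0.520 ± 0.335 at 4 Hz, or -1.49 ± 0.407 and -2.02 ± 0.443 on the log2 scale (adjusted p = 0.0058 and 0.00058). Atoh8 fell by 1.35 at 1 Hz and by 1.89 at 4 Hz on the log2 scale (adjusted p = 0.00014 and 3.4e-06), from 2.64 ± 0.557 CPM, and on log2(TPM + 1) it was still called, at -0.74 and -0.97.

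Of 29 upstream and partner regulators tested, 1 was higher and 5 were lower at 1 Hz, and 2 were higher and 8 lower at 4 Hz. These are 3.45% and 17.2% and then 6.90% and 27.6% of the list, beside 7.19% and 7.74% and then 12.8% and 12.3% of all genes. The list median lay near 0, at -0.03 for 1 Hz and -0.01 for 4 Hz. In limma on log2(TPM + 1), 0 were higher, with 7 lower at 1 Hz and 9 lower at 4 Hz. On that scale all genes also split mostly downward, as given above. Pax7, the marker of satellite cells, fell from 6.06 ± 0.894 CPM to 2.07 ± 0.805 at 1 Hz and 2.09 ± 0.391 at 4 Hz, or -1.58 ± 0.181 and -1.53 ± 0.184 on the log2 scale (edgeR adjusted p = 4e-07 and 3.6e-07). Pax7 was still called on log2(TPM + 1), at -0.80 and -0.86. Eya1, a transcriptional coactivator, rose from 6.28 ± 0.842 CPM to 11.9 ± 1.51 and 11.7 ± 1.90, or 0.91 ± 0.119 and 0.90 ± 0.120 on the log2 scale (adjusted p = 2.4e-06 and 1.4e-06). The summed CPM of the 6 myoblast or reserve-cell genes, a list that holds Pax7 and Heyl, ran from 431 to 492 in the control, 473 to 555 at 1 Hz, and 484 to 585 at 4 Hz. With means of 6.06 CPM for Pax7 and 2.21 CPM for Heyl in the control, the sum came almost wholly from other genes of the list. It therefore does not follow Pax7 or Heyl. The calls of Eya1 were lost on log2(TPM + 1), at 0.32 and 0.47. Mef2a, a partner of the myogenic factors at muscle promoters, fell by 0.57 at 1 Hz and by 0.69 at 4 Hz (adjusted p = 1.5e-05 and 5.3e-07), and without the 5 libraries by 0.48 and 0.57, the first of which is under the threshold on fold. Six4, Setd7, Hdac1, Snai1, and Ep300 also fell at 4 Hz, each to a log2(fold change) between -0.73 and -0.53, and Six4 and Setd7 also at 1 Hz, at -0.54 and -0.50. Of these, Setd7 at both frequencies and Snai1 at 4 Hz were no longer called without the 5 libraries. Meis1 rose at 4 Hz by 0.51 ± 0.115 (adjusted p = 0.00068), a call that held in 9 of 22 alternatives.

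Few of the muscle genes that myogenic factors are known to drive passed the test. Of 45 tested, 0 were higher and 3 lower at 1 Hz, 3 higher and 2 lower at 4 Hz, and 0 either way at 10 Hz. Of all genes, edgeR called 0.0376% at 10 Hz. There 8 of the 45 had an unadjusted p under 0.05, beside 8.07% of all genes. DESeq2 and limma on log2(TPM + 1) also called 0 of the list at 10 Hz, beside 23 of 27799 and 0 of 13422 genes in all. The list shares were 0% higher and 6.67% lower at 1 Hz, beside 7.19% and 7.74% of all genes. At 4 Hz they were 6.67% higher and 4.44% lower, beside 12.8% and 12.3% of all genes. The split on log2(TPM + 1) was 0 higher and 5 lower at both 1 Hz and 4 Hz. All genes on that scale also split mostly downward, with 198 higher and 1710 lower at 1 Hz and 333 and 3166 at 4 Hz. The median log2(fold change) of the list was 0.03, 0.19, and -0.10, beside 0.04, 0.06, and 0.01 for all genes. On log2(TPM + 1) the list median was -0.17, -0.13, and -0.12, beside -0.14, -0.21, and -0.01 for all genes. Cdh15, the muscle cadherin, fell from 143 ± 16.7 CPM to 66.8 ± 13.8 at 1 Hz and 65.7 ± 6.93 at 4 Hz, or -1.10 ± 0.107 and -1.12 ± 0.108 on the log2 scale (edgeR adjusted p = 3.6e-08 and 1.3e-08). Cdon, a cell-surface receptor that promotes myogenic differentiation, fell by 0.91 and 0.96 on the log2 scale (adjusted p = 7.1e-06 and 1.5e-06), and Dok7, of the neuromuscular junction, by 0.50 at 1 Hz (adjusted p = 4.9e-05), a call that held in 15 of 22 alternatives. In the other direction, the sarcomere genes Lmod2, Tnni2, and Mylpf rose at 4 Hz, by 0.61 ± 0.122, 0.57 ± 0.167, and 0.57 ± 0.171 (adjusted p = 0.00022, 0.0069, and 0.0075). Those 3 calls were lost on log2(TPM + 1), at 0.29, 0.23, and 0.22, and those of Tnni2 and Mylpf also without the 5 libraries, at 0.30 and 0.27. Leaving out 4 Hz replicate 3 alone ended both calls, at 0.47 and 0.44.

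**Figure D4:**
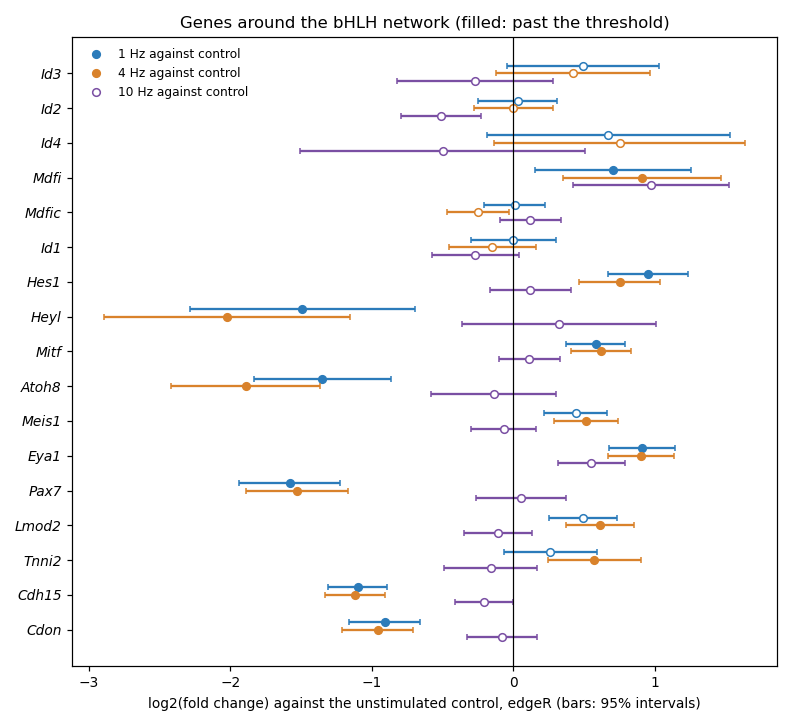
The log2(fold change) against the unstimulated control (horizontal axis) of 17 genes from the 4 lists at 1 Hz, 4 Hz, and 10 Hz in edgeR, with bars for the 95% interval and filled points where a gene passed the threshold. Pax7, Heyl, and Atoh8 lie lowest at 1 Hz and 4 Hz, and Hes1, Eya1, and Mdfi lie highest among the filled points, while no 10 Hz point is filled.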

How the data were processed

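RNA was sequenced from 24 libraries, 6 for each condition, which were mapped to conditions by their titles. The estimated counts per gene were deposited by the authors as salmon in nf-core/rnaseq gave them on GRCm39, not normalized, and the deposited TPM values had been divided by transcript length and scaled to 1000000 per library. Labels name STAR and Salmon, poly(A) selection, and ribodepletion of low-input samples, without saying which. No libraries agreed within sampling noise, as the closest replicates differed by a chi-square of 4.84 per gene. The members and all lists were chosen with earlier results of these data known.

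Counts (19% not whole, off by over 0.001) were rounded, filtered with filterByExpr (10 per library, 15 in total), and scaled by TMM. The quasi-likelihood test of edgeR 4.0.16 in R 4.3.3 was fitted to all 24 libraries with a mean per condition, robust dispersions, and Benjamini-Hochberg adjustment over 13315 genes. CPM values in the text are TMM-scaled. Genes were named by a rule, namely all members, all inhibitors, the 2 called genes of smallest p per direction and comparison in other lists, the 5 genes most like Myog and Myf5, opposite-strand overlaps, and genes whose call changed with the processing. Hdac1 and Ep300 were added after their values were seen. A gene of the lists that entered the counts is not reported here by name. The method was tested on simulated data. DESeq2 1.42.0 and limma 3.58.1 on log2(TPM + 1), for genes over a TPM of 1, were alternatives. With a biological coefficient of variation of 14.8%, depth limits genes at a few CPM or less, such as Myf6, Msc, Id4, Mdfi, Heyl, and Atoh8. Windows were read from GRCm39 with GENCODE M39; no window of Tcf4 is shown. Labels give no batch.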

Additional observations from a re-analysis of the deposited data

Results flagged for a closer look

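In 5 of 36 groups of 6 libraries, 1 library of a member lay far from the rest by Dixon's criterion for 6 values , which chance alone exceeds in about 1 in 20 groups. Myog was lowest in 10 Hz replicate 4, at 438 CPM against 482 in the next library. Tcf4 was highest in 1 Hz replicate 5, at 84.9 CPM against 63.7, and in 4 Hz replicate 5, at 72.0 CPM against 58.5. Tcf12 was lowest in control replicate 1, at 105 CPM against 116, and Msc was lowest in control replicate 3, at 1.69 CPM against 3.29. In 1 Hz replicate 5, Bhlhe40 was also the lowest of its group at 123 CPM and Msc at 1.70 CPM, while Myog and Myod1 lay within the range of the others.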

How the results depend on the processing

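The calls of Myod1, Myog, Myf5, and Bhlhe40 at 1 Hz and 4 Hz against the control were kept in all 22 alternatives, with a log2(fold change) from -1.63 to -1.35, -1.55 to -1.31, 1.03 to 1.39, and -1.16 to -0.79 at 1 Hz and -2.09 to -1.63, -1.79 to -1.43, 0.79 to 1.23, and -1.12 to -0.72 at 4 Hz. Leaving out 1 library at a time counted 4 to 5 members at 1 Hz, the fifth being Myf6 without control replicate 6, and 4 to 5 at 10 Hz against 4 Hz. On log2(TPM + 1) Tcf12 at 4 Hz was also counted, at -0.59 against a median of -0.21 for all genes, and Myf5 at 10 Hz against 4 Hz was lost, at -0.37. Tcf3 at 4 Hz was counted on log2(TPM + 0.1), at -0.51 against a median of -0.24 for all genes. Tcf3 and Tcf12 at 10 Hz against 4 Hz were counted on both TPM scales. For 10 Hz against 4 Hz all tested genes centred at 0.20 on log2(TPM + 1) and at 0.24 on log2(TPM + 0.1).

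Without a threshold on fold change, 28 of the 95 tested list genes were called at 1 Hz and 43 at 4 Hz, beside 37.3% and 51.4% of all genes. At 10 Hz, 1 list gene, Eya1, was called with only the 2 groups compared, in DESeq2, and without the 5 libraries. Of all genes, 23 of 12867, 23 of 27799, and 10 of 13558 were called in these settings, in that order. Leaving out 1 library gave 12 to 16 list genes at 1 Hz and 18 to 23 at 4 Hz. Without the 5 libraries, an alternative chosen after seeing the data, 11 were called at 1 Hz and 14 at 4 Hz. Of all genes, 1641 and 2224 of 13558 were called in that setting, against 1988 and 3344 of 13315 with all libraries. Single libraries whose removal ended a call were control replicates 2 and 6 and 1 Hz replicates 3 and 6 for Setd7 at 1 Hz (-0.49 to -0.46), control replicates 1 and 3 and 1 Hz replicates 3 and 5 for Dok7 (-0.49 to -0.46), 1 Hz replicate 5 for Six4 (-0.46), control replicates 4 and 5 for Snai1 (-0.48 and -0.44), and control replicates 4 to 6 and 4 Hz replicates 3 to 5 for Meis1 (0.44 to 0.49). For Mdfi at 1 Hz the call was lost without any 1 of 9 of the 12 libraries, at 0.40 to 0.73.

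Signs turned for genes near 0 and for Mdfi. Id2 at 1 Hz was -0.01 with no filter, -0.21 on both TPM scales, -0.06 without the 5 libraries, and -0.11 to 0.11 leaving out 1 library. Id2 at 4 Hz was -0.02 with DESeq2 size factors, -0.04 with no filter, -0.0013 with a strict filter, -0.02 with only the 2 groups, -0.03 in DESeq2, -0.32 on log2(TPM + 1) and -0.33 on log2(TPM + 0.1), -0.09 without the 5 libraries, and -0.08 to 0.06 leaving out 1 library. Mdfi at 1 Hz was -0.14 on log2(TPM + 1) and -0.24 on log2(TPM + 0.1). Mdfic at 1 Hz was -0.0016 with DESeq2 size factors, -0.02 with no filter, -0.0015 with a strict filter, -0.01 in DESeq2, -0.22 on both TPM scales, and -0.04 to 0.07 leaving out 1 library. Id1 at 1 Hz was 0.02 with upper-quartile factors and -0.12 to 0.10 leaving out 1 library. On log2(TPM + 1) all tested genes centred at -0.14 for 1 Hz and -0.21 for 4 Hz. The cause of the sign changes was not tested.

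Replicate numbers did not pair the libraries. Deviations from the group means of same-numbered libraries had a mean correlation of -0.0182 over 36 pairs, and 0 of 24 libraries correlated best with their own number. With the replicate block the members counted were 4 at 1 Hz, 4 at 4 Hz, and 0 at 10 Hz, and the list genes 13 and 20 at 1 Hz and 4 Hz. Of 13315 genes, 1904, 3284, and 3 were called at 1 Hz, 4 Hz, and 10 Hz in that fit.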
